A study of Mus musculus with 4 samples.

Results

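10 genes named for the fusion of macrophages into osteoclasts, or for surface proteins tied to that fusion, were followed across 4 arrays of RAW 264.7 cells. They are Dcstamp, Ocstamp, Cd9, Cd81, Cd44, Cd47, Sirpa, Cd200, Cd200r1 and Adam8, 10 of the 19938 genes that the array's annotation names with a single symbol. Each gene was read from the probe set with the highest mean among those carrying its symbol alone. RAW 264.7 is a mouse macrophage-like line, and all 4 groups are this line. The line had been transfected with a control vector or with one that expresses miR-155, and each was sampled unstimulated and after 72 h with RANKL, which induces osteoclasts, and M-CSF, a growth factor of macrophages. The series text gives 20 ng/ml without saying whether it holds for each cytokine. The same text speaks of wild-type cells for what the descriptions of the samples call control vector. Neither the promoter of the vector nor whether a pool or 1 clone was used is stated in the labels. There was 1 array per group, and the differences below therefore have no replicate check.

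Osteoclasts are made when mononuclear precursors meet, attach and merge their membranes. DC-STAMP and OC-STAMP are multi-pass membrane proteins without which precursors become osteoclast-like but stay mononuclear. Around them sit tetraspanins such as CD9 and CD81, which organise proteins in the membrane, the hyaluronan and osteopontin receptor CD44, and pairs that bind across cells, CD47 with SIRPα and CD200 with its receptor. These pairs are also known as brakes on macrophage activity. The miRNA is shown first because it is what the vectors differ in, and promoters follow for genes that were higher together in stimulated control cells. The mature miR-155-5p lies at chr16:84714143-84714165 on the plus strand (RefSeq, build GRCm38.p6), and the capitals mark its seed, bases 2 to 8, through which it pairs with target messenger RNAs.
mmu-miR-155-5p: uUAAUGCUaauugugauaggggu
RefSeq's table of promoters matched 6 of the 10 genes (Cd9, Cd81, Cd44, Cd47, Cd200 and Adam8). The 250 bases before the start are printed for Cd200, Cd9 and Cd44, the genes of these 6 that were at least 1.5-fold higher in stimulated control cells. They lie, all on the minus strand of GRCm38.p6, at chr16:45409054-45409303 (Cd200), chr6:125494761-125495010 (Cd9) and chr2:102901666-102901915 (Cd44). Capitals mark GGAAA (the core bound by NFAT factors), GAGGAA (bound by PU.1) and GGGCGG (bound by SP1), on either strand.
Cd200: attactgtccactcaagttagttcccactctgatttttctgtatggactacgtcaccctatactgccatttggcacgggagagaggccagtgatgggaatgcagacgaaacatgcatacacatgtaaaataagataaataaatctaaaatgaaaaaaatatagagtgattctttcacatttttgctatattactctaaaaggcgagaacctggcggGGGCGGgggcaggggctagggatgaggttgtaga
Cd9: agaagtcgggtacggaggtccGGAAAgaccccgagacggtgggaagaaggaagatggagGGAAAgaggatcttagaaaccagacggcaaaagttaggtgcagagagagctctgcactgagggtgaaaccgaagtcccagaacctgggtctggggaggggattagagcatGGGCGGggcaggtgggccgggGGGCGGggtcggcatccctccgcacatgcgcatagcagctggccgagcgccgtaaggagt
Cd44: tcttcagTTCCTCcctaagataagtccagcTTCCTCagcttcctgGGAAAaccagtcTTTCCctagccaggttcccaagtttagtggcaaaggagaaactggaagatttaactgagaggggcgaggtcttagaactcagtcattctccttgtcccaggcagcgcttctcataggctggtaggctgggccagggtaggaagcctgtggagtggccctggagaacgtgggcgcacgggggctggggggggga
The window of Cd44 held 2 matches to GGAAA and 2 to GAGGAA, and that of Cd9 held 2 to GGAAA and 2 to GGGCGG. The window of Cd200 held 1 match to GGGCGG and none to the other 2 words. GGAAA and GAGGAA can overlap, since the end of one can be the start of the other, but did not in these windows. Over all 32851 promoters of the same length, 55.6% held GGAAA, 23.3% held GAGGAA and 32.7% held GGGCGG. Among the 6 matched genes, 2 held GGAAA, 1 GAGGAA and 5 GGGCGG, and 0 held the AP-1 word TGANTCA, which 6.75% of all promoters hold. The scan also covered the E-box CANNTG, held by 4 of the 6 and by 66.2% of all promoters. The cAMP response element TGACGTCA was held by 0 of the 6 and by 1.55% of all promoters. A match is a run of letters and not a shown binding site.

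All values are log2 expression from RMA, and a difference of 1 is 2-fold. A gene counted as above the floor if any array read over 4.25, the 95th percentile of 1210 olfactory and vomeronasal receptor probe sets, genes that macrophages are not known to use. This held for 13545 genes and for 9 of the 10 followed here. Cd200r1 stayed below on all 4 arrays, and Cd200 passed only through the stimulated arrays. The same receptor probe sets gave a noise reference for each comparison, the size under which 95% of their differences lay: 0.48 for stimulation in control cells, 0.41 in miR-155 cells, 0.37 between the vectors without stimulation and 0.47 with it. It describes dim probe sets and is not a replicate error. The array of stimulated control cells was unlike the others. Its Pearson correlations with the other 3 arrays, across genes above the floor, were 0.908 to 0.937, against 0.982 to 0.989 among those 3. The comparisons that do not use it are stimulation in miR-155 cells and the vectors without stimulation. All 13 macrophage markers but Mrc1, which lay below the floor, were above it on every array. Their summed linear level was 34709 and 33311 in unstimulated control and miR-155 cells, 12282 in stimulated control and 29360 in stimulated miR-155 cells. With stimulation 9 of the 12 were past 2-fold lower in control cells (median -2.93), against 6.93% of all genes above the floor. In miR-155 cells 0 were (median -0.27), against 0.185%. The 12 osteoclast markers, of which Dcstamp and Ocstamp are a part, summed to 2346 and 1595 without stimulation, and to 44722.5 in stimulated control and 14117 in stimulated miR-155 cells. Calcr, the calcitonin receptor, was below the floor on all arrays but that of stimulated control cells. Of the markers of T and B cells, fibroblasts and osteoblasts, and granulocytes and mast cells, 2 to 3 of 8, 6 to 7 of 8 and 2 to 3 of 10 lay above the floor on an array, none with a value over 5.79. Of these, Dcn, a fibroblast proteoglycan, differed most with stimulation in control cells, from 3.48, below the floor, to 5.04, at least 1.73-fold. What these markers contribute to the differences below was not tested, and in bulk RNA more osteoclast-like cells and more RNA per cell cannot be told apart.

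Dcstamp and Ocstamp were the 2 of the 10 genes that were past 2-fold higher with stimulation under both vectors. Dcstamp measured 6.58 in unstimulated control cells, 11.13 in stimulated control cells, 6.49 in unstimulated miR-155 cells and 9.56 in stimulated miR-155 cells. Both stimulated arrays lay far above both unstimulated ones, and the unstimulated arrays differed by 0.09, within the noise reference. The difference with stimulation was 4.54 (23.3-fold) in control cells and 3.06 (8.36-fold) in miR-155 cells. With stimulation, miR-155 cells were at -1.57 relative to control cells, a 2.97-fold lower level.

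Ocstamp measured 5.69 in unstimulated control cells, 10.97 in stimulated control cells, 6.37 in unstimulated miR-155 cells and 9.55 in stimulated miR-155 cells. The order of the stimulated arrays was that of Dcstamp, while without stimulation the miR-155 array was the higher one. The difference with stimulation was 5.28 (38.9-fold) in control and 3.18 (9.07-fold) in miR-155 cells. Between the vectors the difference turned with the state, 0.68 (1.61-fold higher in miR-155 cells) without stimulation and -1.42 (2.67-fold lower) with it. Of the 9 genes above the floor, Ocstamp alone was at least 1.5-fold apart between the vectors without stimulation. Across all genes above the floor, 1.18% were that much higher in miR-155 cells.

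**Figure D1:**
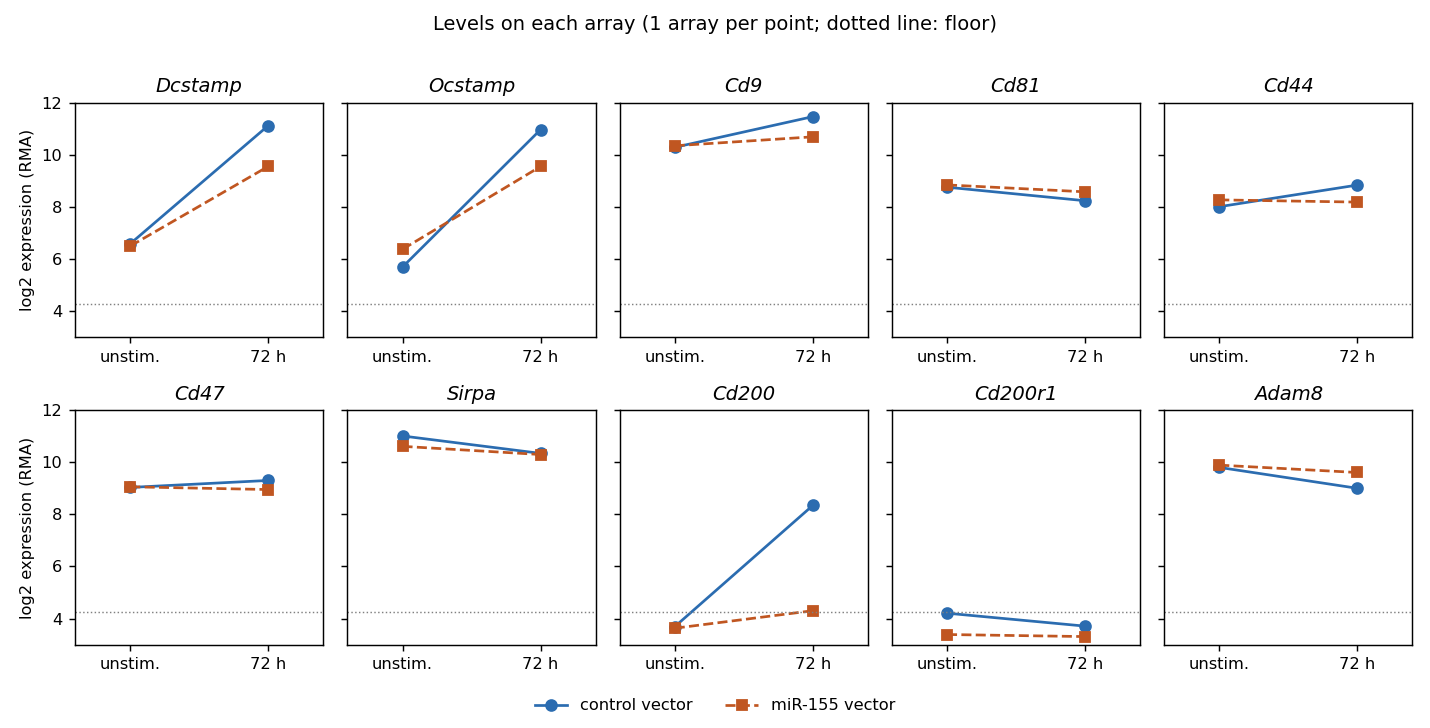
Log2 expression of the 10 genes on each array, without stimulation and after 72 h, with the control vector (blue circles, solid line) and the miR-155 vector (orange squares, dashed line). Each point is 1 array, there are no error bars because no group has replicates, and the dotted line is the floor of 4.25; Dcstamp and Ocstamp reach 9.55 or more in both stimulated cultures, whereas Cd200 reaches 8.35 with the control vector and 4.30 with miR-155.

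The tetraspanins Cd9 and Cd81 differed in opposite directions in control cells. Cd9, which gathers adhesion and fusion proteins into membrane domains, measured 10.29 in unstimulated and 11.47 in stimulated control cells, and 10.35 and 10.69 in miR-155 cells. The stimulated control array was the high one, and the other 3 were close together. The difference with stimulation was 1.18 (2.27-fold) in control cells, just past 2-fold, and 0.34 in miR-155 cells, within the noise reference. With stimulation, Cd9 in miR-155 cells was at -0.78 relative to control cells (1.71-fold lower). Cd81, a close relative of Cd9, measured 8.76 and 8.24 in control cells without and with stimulation, and 8.85 and 8.58 in miR-155 cells. Both stimulated arrays were the lower ones of their vector. The differences were -0.52 in control and -0.27 in miR-155 cells, of which the first lies just outside the noise reference of 0.48.

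Cd44, the receptor for hyaluronan and osteopontin, followed Cd9 in that a single array was high. It measured 8.01 and 8.84 in control cells without and with stimulation, and 8.27 and 8.19 in miR-155 cells. The difference with stimulation was 0.83 (1.78-fold) in control cells, under 2-fold, and -0.08 in miR-155 cells, within the noise reference. With stimulation, miR-155 cells were at -0.65 relative to control cells (1.57-fold lower), and without it at 0.26, within the noise reference.

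CD47 and SIRPα form a pair in which CD47 on one cell engages SIRPα on another, and SIRPα recruits the phosphatases SHP-1 and SHP-2. Cd47 measured 9.04 and 9.31 in control cells without and with stimulation, and 9.06 and 8.96 in miR-155 cells. All 4 values lay within 0.35 of each other and every difference was within its noise reference. A dimmer probe set of Cd47 gave differences of the opposite sign, -0.25 with stimulation with the control vector and 0.18 with miR-155, so no direction is given for this gene. Sirpa measured 11.02 and 10.35 in control cells, and 10.62 and 10.31 in miR-155 cells. Unstimulated control cells were the high ones. The difference with stimulation was -0.67 (1.59-fold lower) with the control vector and -0.31 with miR-155, within the noise reference, and without stimulation miR-155 cells were at -0.40 relative to control cells, against a reference of 0.37. The related genes Sirpb1a, Sirpb1b and Sirpb1c share their probe sets in the annotation and were not read.

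CD200 and its receptor form a pair that restrains myeloid cells and has also been tied to osteoclast formation. Cd200 measured 3.69 in unstimulated control cells, 8.35 in stimulated control cells, 3.63 in unstimulated miR-155 cells and 4.30 in stimulated miR-155 cells. One array was high, both unstimulated values were below the floor, and the stimulated miR-155 value lay next to it. Against the floor, Cd200 was at least 17.1-fold higher with stimulation in control cells. In miR-155 cells the same bound was 1.04-fold, with a measured difference of 0.67. Stimulated miR-155 cells were 16.5-fold lower than stimulated control cells (-4.05), with both values above the floor. This was the largest vector difference among the 10 genes. The receptor gene Cd200r1 measured 4.20, 3.71, 3.38 and 3.31 in unstimulated control, stimulated control, unstimulated miR-155 and stimulated miR-155 cells. All 4 values were below the floor, so no order is read from them. The related Cd200r2, Cd200r3 and Cd200r4 were below the floor as well.

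Adam8, a membrane protease reported to promote osteoclast formation, measured 9.81 and 9.01 in control cells without and with stimulation, and 9.90 and 9.61 in miR-155 cells. Stimulated control cells were the low ones. The difference with stimulation was -0.80 (1.74-fold lower) with the control vector and -0.28 with miR-155, within the noise reference, and with stimulation miR-155 cells were higher by 0.61 (1.52-fold).

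**Figure D2:**
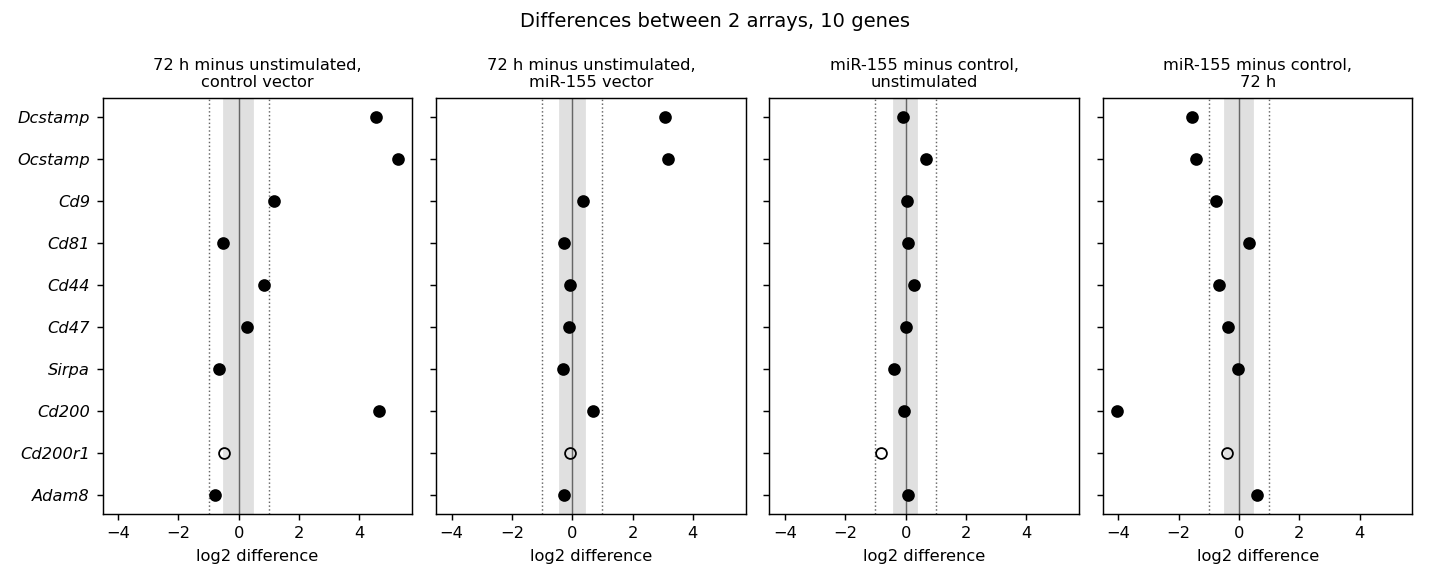
Log2 differences of the 10 genes in 4 comparisons of 2 arrays each; grey bands span the noise reference on either side of 0 and dotted lines mark 2-fold. Filled points are genes above the floor and open points Cd200r1, which is below it; without stimulation no filled point passes 2-fold between the vectors, while with stimulation Cd200 (-4.05), Dcstamp (-1.57) and Ocstamp (-1.42) do.

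Over the 9 genes above the floor, 4 were past 2-fold higher with stimulation in control cells (Ocstamp, Cd200, Dcstamp and Cd9), where 5.74% of all genes above the floor were, and 0 were past 2-fold lower, where 6.93% were. In miR-155 cells 2 were past 2-fold higher (Ocstamp and Dcstamp) against 1.15% of all genes, and 0 lower against 0.185%. Between the vectors without stimulation 0 of 9 were past 2-fold, against 0.0664% of all genes higher and 0.546% lower in miR-155 cells. With stimulation 3 were lower in miR-155 cells (Cd200, Dcstamp and Ocstamp) against 5.56%, and 0 higher against 5.6%. In the difference of the stimulation responses Cd200 (-3.99), Ocstamp (-2.10) and Dcstamp (-1.48) were past 2-fold lower, against 4.64% of all genes. Each had the smaller response in miR-155 cells, and 0 had the larger one, against 6.64%. Cd200 is in these counts only because its stimulated arrays pass the floor. Both its unstimulated values lie below the floor, so its -3.99 is not an exact size.

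At 1.5-fold the weaker differences enter. In control cells Cd44 joined the higher genes (5 of 9, against 12.4%), and Sirpa and Adam8 were lower (2 of 9, against 15.2%). In miR-155 cells the measured differences of Dcstamp, Ocstamp and Cd200 passed it (3 of 9, against 3.43%), but that of Cd200 starts below the floor and against the floor is 1.04-fold, and 0 were lower, against 3.74%. Without stimulation Ocstamp was the 1 gene higher in miR-155 cells, and 0 were lower, against 3.15%. With stimulation Cd9 and Cd44 joined the lower ones (5 of 9, against 13.6%), and Adam8 was higher (1 of 9, against 12.4%). The difference of the responses was that much lower for the same 5 genes, against 13.9%, and higher for 0, against 14.5%. Past the noise reference were 8 of the 9 with stimulation with the control vector and 3 with miR-155, where 34.3% and 16.3% of all genes were. Cd47 was the exception in control cells, and 1 of the 3 in miR-155 cells is Cd200, with its value below the floor. The medians of the 9 genes were 0.83 with stimulation with the control vector and -0.08 with miR-155, against -0.02 and -0.03 over all genes. The genes were chosen with results of these arrays known, so these counts describe them and support nothing more.

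The part of the control response that was present in miR-155 cells differed among the genes past 2-fold. On the log2 scale it was 67.4% for Dcstamp, 60.2% for Ocstamp and 29.1% for Cd9. The median was 27.6% over the 777 genes more than 2-fold higher in control cells, of which 65 had an unstimulated value below the floor. Those genes were chosen by their control response and not matched to Dcstamp, Ocstamp or Cd9 in its size, so this median is not a like comparison. No share is given for Cd200, whose unstimulated values were both below the floor. Genes with a like response in control cells, within 0.5 on the log2 scale, give another measure. For Dcstamp there were 12 such genes, Cd200 among them, whose median with the miR-155 vector was 2.20. Of these, 11 had a smaller difference there than Dcstamp (3.06). For Ocstamp there were 6, with a median of 2.41, and 5 had a smaller difference than Ocstamp (3.18). An unstimulated value was below the floor for 2 of the 12 and 3 of the 6. For Cd9 there were 1066, 74 of them with such a value, and the median was 0.17, with 763 smaller than Cd9 (0.34). For Cd200 there were 12, 0 of them with such a value, and the median was 2.42. Both responses of Cd200 itself start from values below the floor, so its position among them is not read. These are positions on pairs of single arrays and carry no error.

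**Figure D3:**
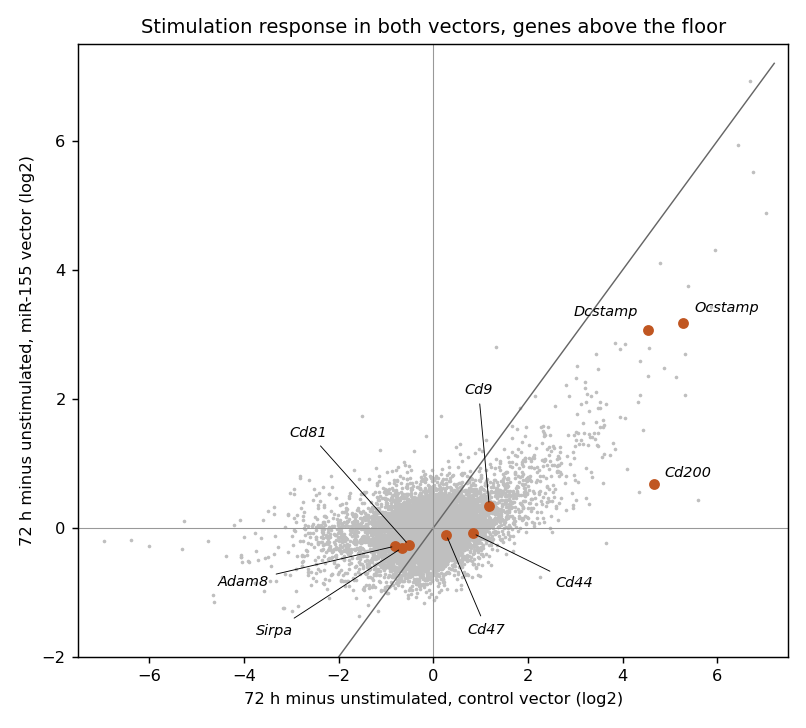
Stimulation response in control cells (horizontal axis) against that in miR-155 cells (vertical axis), as log2 differences of 2 arrays each, for genes above the floor (grey) with 9 of the 10 followed genes in orange; the diagonal marks equal responses. Dcstamp (4.54 and 3.06) and Ocstamp (5.28 and 3.18) lie below the diagonal, Cd200 (4.66 and 0.67, from unstimulated values below the floor) lies close to the horizontal axis, and the other 6 lie near the centre.

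The genes with the most similar profile over the 4 arrays were looked up for Dcstamp, Ocstamp and Cd200, the 3 whose range exceeded 2. The measure was the root mean square distance between log2 profiles, each centred on its own mean, and 4 arrays are few points for it. Nearest to Dcstamp was Car2, the carbonic anhydrase of osteoclasts, at a distance of 0.02, with differences with stimulation of 4.54 in control and 3.06 in miR-155 cells. The tyrosine kinase gene Src (0.23) and the transcription factor gene Bhlhe40 (0.27) followed. Nearest to Ocstamp was Dcstamp (0.35), then Car2 (0.37) and the sodium-proton exchanger Slc9b2 (0.46). Ocstamp was the sixth nearest to Dcstamp. Nearest to Cd200 were the metallothionein Mt3 (0.16), the protease inhibitor Serpinb1a (0.31) and Akr1c18, a steroid dehydrogenase (0.46), the last 2, like Cd200 itself, below the floor in unstimulated cells. Mt3 measured 6.61 and 10.95 in control cells without and with stimulation and 6.24 and 6.79 in miR-155 cells, so it too was high on a single array. Dcstamp stood at rank 151 from Cd200, at a distance of 1.04.

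Among 32 other genes tied to fusion of macrophages, 30 were above the floor, and 11 of these were past 2-fold higher (against 5.74% of all genes) and 4 lower (against 6.93%) with stimulation in control cells, with a median of 0.27. The largest differences were those of Mmp9, a matrix metalloproteinase (7.02), Atp6v0d2, a proton pump subunit needed for fusion (6.75), Mmp14, a membrane metalloproteinase (3.65), and the integrin subunit Itgb3 (3.61). In miR-155 cells 8 were past 2-fold higher (against 1.15%) and 0 lower (against 0.185%), with a median of 0.06. Those 8 were all among the 11, so that 72.7% of the genes higher in control cells and 100% of those higher in miR-155 cells were shared, against 18.3% and 91% over all genes. They include the sialic acid receptor gene Siglec15 (3.60 in control and 1.59 in miR-155 cells) and the tetraspanin-like Tm4sf19 (3.19 and 2.26). Mmp14, Ptpn12 and Sh3pxd2a were past 2-fold in control cells and not in miR-155 cells, where they were at -0.23, 0.70 and 0.08 (the last 2 were picked after their values were seen). The scavenger receptor Cd36, named for its difference between the vectors with stimulation (3.55), was lower in control cells with stimulation (-3.37) and not in miR-155 cells (0.21).

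Several other tetraspanins were higher in stimulated control cells. Of 28 on the array 19 were above the floor, and 6 were past 2-fold higher (against 5.74% of all genes) and 0 lower (against 6.93%) with stimulation in control cells (median 0.16), among them Tspan10 (1.79), Cd82 (1.59), Tspan17 (1.26) and the lysosomal Cd63 (1.21). In miR-155 cells 1 of the 19, Cd82 (1.02), was past 2-fold higher (against 1.15%), 0 were lower (against 0.185%) and the median was -0.08. Among other ADAM genes no member was past 2-fold higher, against 5.74% of all genes in control and 1.15% in miR-155 cells. Of 7 above the floor, 1 (against 6.93%) was past 2-fold lower in control cells, the sheddase gene Adam17 (-2.54, against -0.08 in miR-155 cells), while Adam15 was at -0.91 in both vectors. Both medians were negative, -0.32 in control and -0.08 in miR-155 cells.

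Ligands, effectors and linkers of the 10 proteins were mixed. Of 17 above the floor, 2 were past 2-fold higher (against 5.74%) and 3 lower (against 6.93%) with stimulation in control cells, with a median of -0.25. In miR-155 cells 1 was higher (against 1.15%) and 0 lower (against 0.185%), with a median of -0.04. The integrin subunits Itgav (3.53) and Itga6 (2.49) were the highest in control cells, and the adaptor Fyb (-2.32) and the integrin subunit Itga4 (-1.73) the lowest. Ptpn6, which encodes the SIRPα effector SHP-1, was at -0.83 in control and -0.19 in miR-155 cells. Ptpn11, which encodes SHP-2, was at -0.32 and -0.22, both within the noise reference. Ezr, a linker of CD44 to actin, was at -1.19 and -0.26. The linkers Msn (0.58 and -0.04) and Rdx (-0.54 and -0.12) differed in opposite directions in control cells. These effector and linker genes were picked after their values were seen. Of 19 regulators of osteoclast formation above the floor, 7 were past 2-fold higher (against 5.74%) and 3 lower (against 6.93%) in control cells, with a median of 0.61. In miR-155 cells 5 were higher (against 1.15%) and 1 lower (against 0.185%), with a median of -0.13. Prdm1, a repressor, was at least 32.0-fold higher in control cells and at 2.05 in miR-155 cells. Myc was at 4.04 and 2.85, the AP-1 member Fosl2 at 3.47 and 1.26, Jdp2 at 3.01 and 2.33, and Nfatc1, the leading osteoclast regulator, at 2.34 and 1.42.

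**Figure D4:**
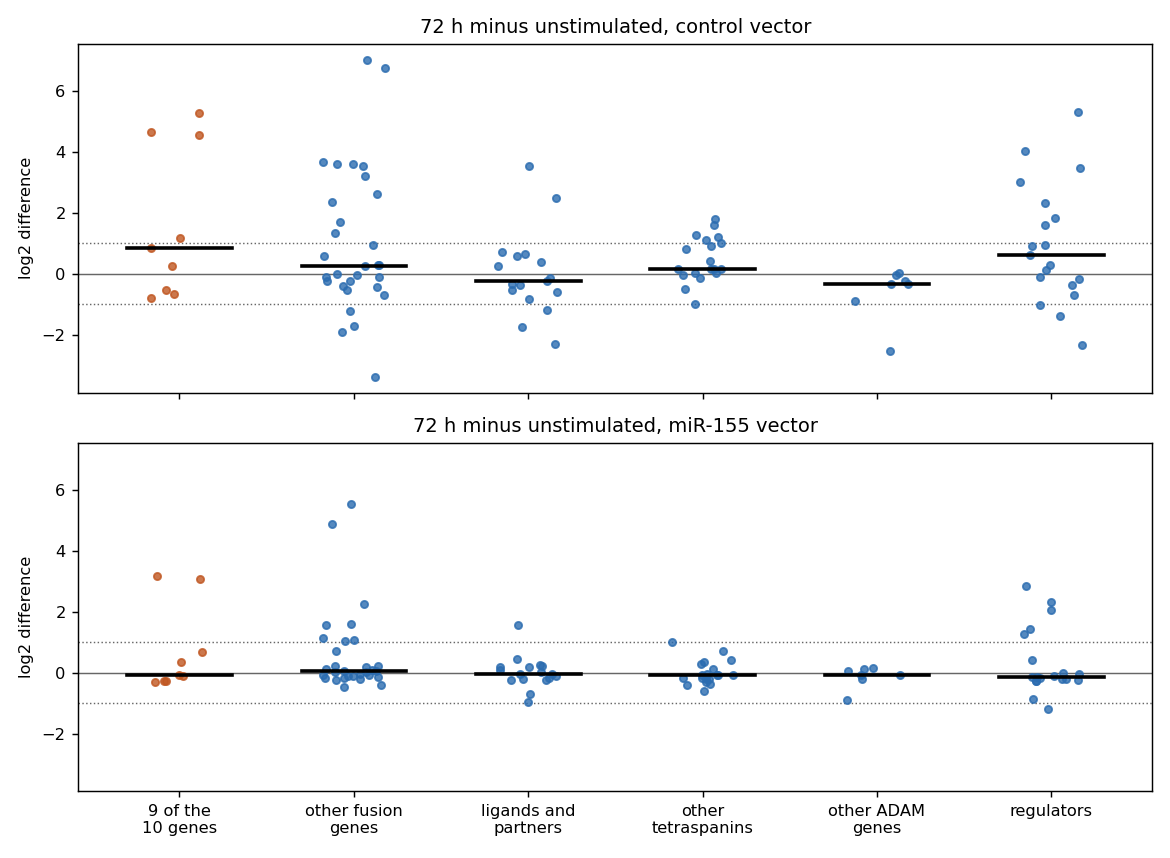
Log2 difference with stimulation for genes above the floor in control cells (top) and miR-155 cells (bottom); each point is 1 gene, spread sideways for visibility, black bars are medians and dotted lines mark 2-fold. The medians run from -0.32 for other ADAM genes to 0.83 for the 9 followed genes in control cells, and from -0.13 to 0.06 in miR-155 cells, where the highest followed genes are Ocstamp (3.18) and Dcstamp (3.06).

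A model with stimulation and vector as additive terms over all 4 arrays (limma) gives the one test this design allows. It has 1 residual degree of freedom, the disagreement between the vectors, and limma adds 3.03 from a variance shared over all genes. The errors below mix both, and a gene whose responses differ much between the vectors keeps a large error. Neither part is a spread of replicate cultures. For stimulation it called 0 of the 9 genes and 0 of all 13545 at an adjusted p under 0.05 (0% of all genes), with 7.57% of all genes at an unadjusted p under 0.05. Among the 9, Dcstamp and Ocstamp were under that unadjusted threshold, and both were higher in 2 of 2 vectors. So were Cd9, within the noise reference in miR-155 cells, and Cd200, from values below the floor. By limma the mean effect of stimulation was 3.80 for Dcstamp (SE 0.42, 95% interval 2.65 to 4.95, adjusted p = 0.545) and 4.23 for Ocstamp (SE 0.56, 2.69 to 5.77, adjusted p = 0.647). For Cd200, whose responses differed most and whose unstimulated values are below the floor, it was 2.67 with an SE of 1.01 and an interval from -0.13 to 5.46. For Cd9 it was 0.76 with an interval from -0.02 to 1.55. For the vector term limma called 0 genes, with 3.86% of all genes and 0 of the 9 at an unadjusted p under 0.05; the estimates for Dcstamp and Cd200 were -0.83 (-1.98 to 0.32) and -2.05 (-4.85 to 0.74).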

How the data were processed

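RNA of 4 cultures was read on Affymetrix Mouse 1.0 ST arrays, per the labels' protocols. The deposited log2 values had been made by the authors with RMA in Partek, per the submitters' processing notes, without versions or a genome build. Sorted, the 4 columns differed by at most 0.218, and a shift of total RNA would not show. Arrays have no read depth, and their number limits the precision.

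The platform annotation gave 1 symbol to 21789 of 35557 probe sets, several to 1621 and none to 12147. Each gene was read from its brightest probe set by mean. The text names the 10 genes, up to 4 genes per list, by absolute difference, the 3 nearest profiles, and genes near 2-fold. Members and lists were chosen with earlier results of these data known. Differences of log2 values were counted past 2-fold with no test. limma 3.58.1 (R 4.3.3, lmFit and eBayes, Benjamini-Hochberg over all 13545 genes) fitted the additive model. The fit was also run on simulated data whose stimulation effect was the same in both vectors. As responses here differed between the vectors, that run does not show how the fit performs on these data. Python 3.11.15, pandas 2.3.3 and matplotlib 3.10.9 were used. The alternatives were renewed quantile normalization, median centring, other floors, 1.5-fold, probe-set means and an intensity trend.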

Additional observations from a re-analysis of the deposited data

Results flagged for a closer look

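Genes whose vector difference pointed in opposite directions without and with stimulation, each past its noise reference, were marked; the difference between the states was not tested, and both values come from 1 array per group. Of all genes above the floor, 14.8% were past the reference without stimulation and 32.8% with it. How many of all genes show the opposite directions was not counted, so the genes below are not said to stand out. Ocstamp, one of the 10 genes, was at 0.68 in miR-155 relative to control cells without stimulation and at -1.42 with it. The other genes of the lists with this pattern were Itga6 (0.96 and -1.34), Fos (0.53 and -1.30), Mfge8 (0.40 and -1.15), Sh3pxd2a (0.39 and -1.22), Myc (0.38 and -0.81), Tnfrsf11a (0.38 and -0.73) and Prdm1 (0.45 and -2.81), and, the other way round, Fyb (-0.74 and 1.76), Itga4 (-0.68 and 1.14), Dock1 (-0.40 and 1.32), Adgre1 (-0.91 and 3.04) and Mpeg1 (-1.19 and 2.02). For Prdm1 the value in unstimulated control cells was below the floor, and its difference there is at least 1.10-fold. The stimulated values all use the control array with the lowest correlations to the others.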

How the results depend on the processing

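No paired analysis was possible because each group has 1 array and the labels number no replicates; for the same reason none could be left out. At 1.5-fold in place of 2-fold, the counts over all genes, and those of the 9 genes given here, moved by more than 1.5 times. In control cells with stimulation 1673 genes were higher and 2053 lower, with 2 of the 9 genes lower; in miR-155 cells 465 were higher and 506 lower. Between the vectors 160 were higher and 426 lower without stimulation (1 of the 9 higher), and 1673 higher and 1838 lower with it (1 of the 9 higher and 5 lower). The difference of the responses gave 1961 and 1885, with 5 of the 9 lower. For stimulation, limma called 2 genes with the arrays centred, quantile normalized again, with the floor at the 99th percentile or with an intensity trend, and 1 with means over probe sets, none of them among the 10. Adjusted p-values by limma ranged from 0.297 to 0.719 for Dcstamp and from 0.383 to 0.719 for Ocstamp over all settings. Of the 10 genes' differences recomputed under 6 settings, 296 stayed within the noise reference of their first value and 4 moved, all for Cd200 and Cd200r1 with values under the floor set to the floor, where Cd200 was at 4.10 in control and 0.05 in miR-155 cells with stimulation. The signal of both genes near the floor limits what can be said of them.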
